A study of Mus musculus with 8 samples.

Results

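Homologous recombination and the Fanconi anaemia pathway were examined here as a group of 35 genes, compared between MYC-positive and MYC-negative germinal centre (GC) B cells of the mouse spleen. The members were set by name, and each was represented by the probe set with the highest mean log2 signal among those annotated to that gene alone. Of the 35 genes, 33 had such a probe set, all 33 passed the filter on low signal, and these are 33 of 11754 genes tested. Rbbp8 and Xrcc2 are not analysed here.

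Both groups of cells came from 8-week-old GFPMYC/C57BL6 mice, in which a GFP-MYC fusion protein is made from a knock-in allele, so every sample carried that allele. The mice were immunized with sheep red blood cells, which start a GC reaction, and spleens were taken on day 12. After magnetic enrichment of B cells, GC B cells that bind peanut agglutinin strongly and carry much CD95 were sorted on GFP, which gave MYC-positive and MYC-negative fractions with 4 samples of each. The sample descriptions tie each positive sample to a negative partner, giving 4 pairs. One protocol speaks of a sort for each mouse and the design text of pooled cells, so a pair may be a single mouse or a pool. The p-values reach no further than these 4 pairs, and the variance behind them was drawn partly from other genes.

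Homologous recombination repairs a double-strand break by copying an intact sister chromatid. The MRE11-RAD50-NBN complex senses and trims the break, BRCA1, PALB2 and BRCA2 prepare the trimmed end, strand exchange factors such as RAD54 help it pair with the template, and nucleases and helicases resolve the joined strands. The Fanconi core complex attaches ubiquitin to FANCD2 and FANCI where a crosslink blocks a replication fork and so directs these same tools to it. GC B cells divide very fast and cut their antibody genes during class switching, which creates breaks that need repair. MYC is carried by a minority of GC B cells, and the comparison asks how their transcripts differ from those of the remaining GC B cells.

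Few transcripts of this repair machinery passed the test for a difference between the fractions. Atr, the kinase that answers stalled replication forks, was higher in MYC-positive cells and was the only member to pass the test, while 0 members passed as lower (limma with the pair as a block, adjusted p under 0.05 over all genes tested). That is 1 of 33 members, or 3.03%, where 22.7% of all genes tested were called, 11.2% higher and 11.5% lower. Differences are given as log2 signal in MYC-positive minus that in MYC-negative cells. Their median over the 33 genes was -0.058, beside -0.063 over all genes, with 15 members above 0 and 18 below. Differences ran from -0.77 for Slx4 to 0.89 for Atr, and 24 of the 33 (72.7%) were smaller than 0.5 in size, against 55.0% of all genes.

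Looser readings gave low shares for the members as well. At an unadjusted p under 0.05 there were 4 members higher and 2 lower, 18.2% of the members against 36.2% of all genes. The 4 positive and 4 negative arrays did not overlap for 3 members (9.09%), against 22% of all genes, and the difference had the same sign in all 4 pairs for 7 members (21.2%), against 42.3%. A missed threshold does not show equal expression. The 95% intervals of 21 members (63.6%, against 40.2% of all genes) lay wholly between -1 and 1. Over all members the intervals reached from -1.47 to 1.50. For the 21 this bounds the difference below 2-fold only in the probe set used and with the deposited scaling. Rad54l, Fancl, Rad51d and Fancb are among the 21, and some of their other probe sets had differences below -1, as given below.

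**Figure D1:**
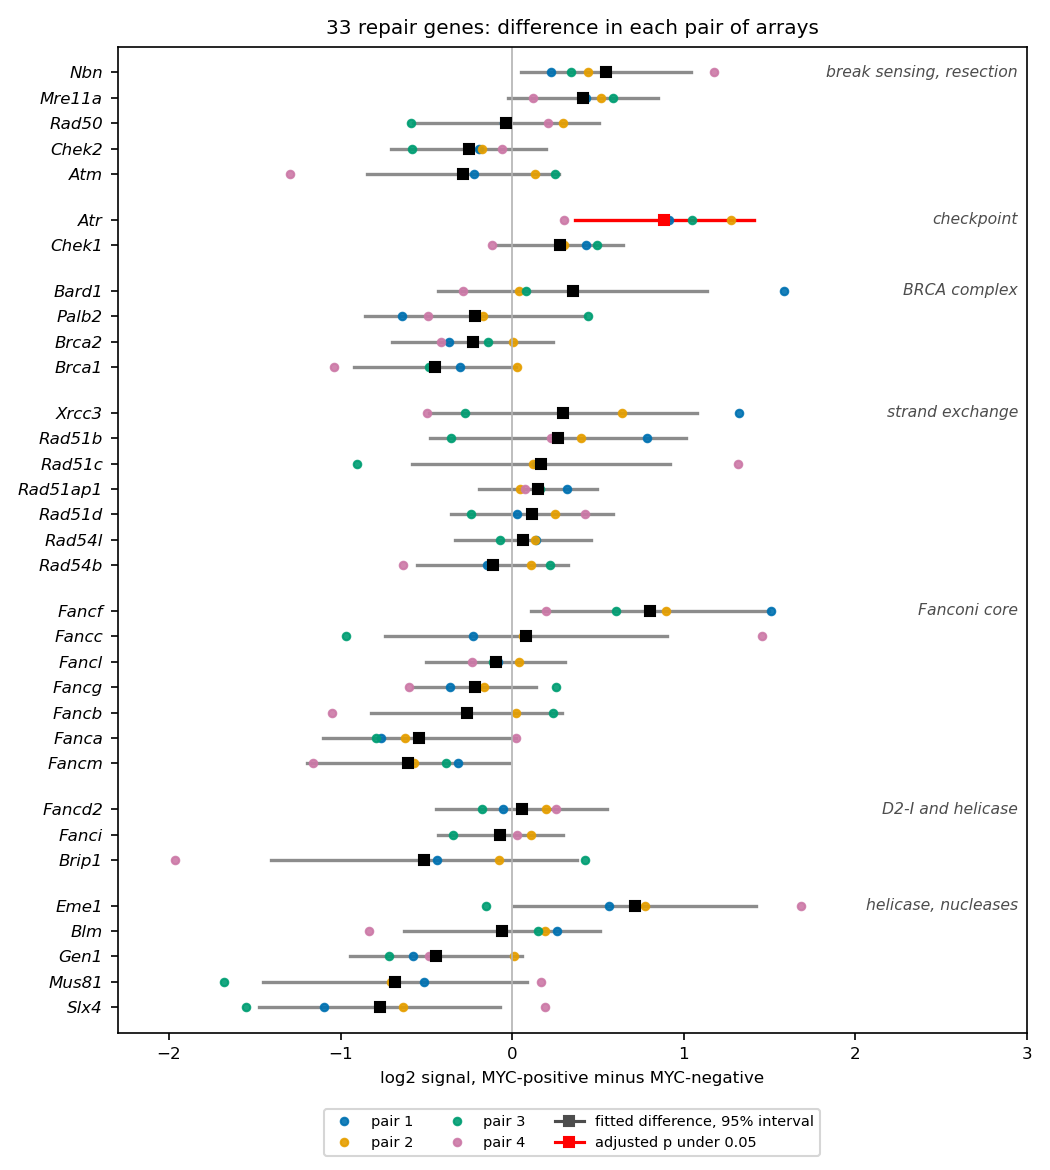
Difference in log2 signal, MYC-positive minus MYC-negative, for the 33 repair genes, grouped by role. Dots are the 4 pairs, squares are the fitted difference and lines its 95% interval; Atr, in red, is the gene past the threshold, and most other squares lie within 0.5 of 0.

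The count depended on the pairs. Without pair 4 there were 4 members higher (Atr, Chek1, Fancf and Mre11a) and 3 lower (Fanca, Mus81 and Slx4), 21.2% of the members where 32.1% of all genes were called. Without pair 1, pair 2 or pair 3 there were 0 members called, where 6.42%, 7.49% and 18.6% of all genes were called. Scaling moved the whole distribution. Centring each array on its median raised the median of all genes by 0.44 and that of the members to 0.38, with 7 members called higher and 0 lower where 31.9% of all genes were called, 27.3% higher and 4.65% lower. Quantile normalization raised the median of all genes by 0.15 and that of the members to 0.14, with 4 members higher and 0 lower where 26.5% of all genes were called, 15.2% higher and 11.3% lower. Over all genes the share of calls that were higher was 49.4% here, 57.2% after quantile normalization and 85.4% after centring, and the sign turned for 4 members after quantile normalization and for 11 after centring, all of them uncalled.

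The arrays had been scaled to a nearly common level, with trimmed means of 497 to 498. Even so, the positive array of each pair had fewer probe sets with a signal above 100. Their share was 38.3% to 42.7% in the negative and 34.7% to 39.2% in the positive arrays. The median log2 signal was also lower in the positive array of each pair, at 5.37 to 5.80 in the negative and 4.82 to 5.31 in the positive arrays. Myc itself, the check of the sort, was higher by 2.83 on the log2 scale (SE 0.28, adjusted p = 0.00069) in 4 of 4 pairs. Markers of other cells moved with the comparison. Of 14 myeloid and macrophage markers tested, 11 were higher and 1, Apoe, was lower in MYC-positive cells. The summed signal of the list of 18 was 929 to 1884 in the negative and 2030 to 14263 in the positive arrays. The rest of the 18 fell below the filter on low signal, and detection calls were not used. Of 9 GC B cell markers, all above the filter, 0 were higher and 3 were lower (Cd22, Fas and Mybl1). At an unadjusted p under 0.05, 2257 of 11754 genes were lower. So were 8 of these markers, and all 9 had differences below 0 (median -0.46). Their summed signal was 58520 to 73534 in the negative and 44221 to 55151 in the positive arrays. For T cells, summed signals were 131 to 212 and 128 to 256, with 1 of 3 tested markers (Thy1) higher, and for plasma cells 12796 to 25888 and 15418 to 22647, with 2 of 6 (Sdc1 and Derl3) higher. The part of these cells in the differences of the repair genes was not tested, and in such sorted samples fewer cells of a type and less RNA per cell cannot be told apart.

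Promoter sequences were read from the RefSeq table for GRCm38.p6, which held 28 of the 35 members, as windows of 300 bases from 250 before to 50 after the gene start. They are shown because MYC binds the E-box CACGTG, which reads the same on both strands, and because E2F factors bind the promoters of many genes of this pathway. The E-box was present in 2 of the 28 (7.14%), Eme1 and Slx4, against 8.09% of 27025 genes with a window. An E2F motif (TTTCCCGC, TTTCGCGC, TTTGCCGC or TTTGGCGC, either strand) was present in 5 (17.9%), Bard1, Brca2, Chek2, Fancg and Rad51c, against 2.60% of genes. No window of a member held both motifs. A match is a description of letters and not of binding. Each window of 30 bases below is written 5′ to 3′ on the strand of the gene with the motif in capitals; no match of Rad51c lies wholly before its start, and none is printed.
Eme1: cccacaacgtgtCACGTGaccggagacagt
Slx4: ttcagtaaaaacCACGTGtgtgcgtgctta
Bard1: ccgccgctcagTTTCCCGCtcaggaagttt
Brca2: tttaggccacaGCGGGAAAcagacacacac
Chek2: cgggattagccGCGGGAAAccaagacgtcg
Fancg: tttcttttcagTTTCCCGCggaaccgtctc
The windows lie at chr11:94653963-94653992, minus strand, for Eme1, chr16:4001869-4001898, minus strand, for Slx4, chr1:71103163-71103192, minus strand, for Bard1, chr5:150522442-150522471, plus strand, for Brca2, chr5:110839820-110839849, plus strand, for Chek2, and chr4:43010335-43010364, minus strand, for Fancg. Both E-box genes encode parts of the nuclease machinery, and their differences had opposite signs: 0.72 for Eme1 and -0.77 for Slx4, neither past the threshold. The 5 genes with an E2F motif ran from -0.25 (Chek2) to 0.35 (Bard1), and 0 of them passed. The 250 bases before the start of Atr, the member that passed (chr9:95857347-95857596, plus strand), held neither motif and read as follows.
Atr: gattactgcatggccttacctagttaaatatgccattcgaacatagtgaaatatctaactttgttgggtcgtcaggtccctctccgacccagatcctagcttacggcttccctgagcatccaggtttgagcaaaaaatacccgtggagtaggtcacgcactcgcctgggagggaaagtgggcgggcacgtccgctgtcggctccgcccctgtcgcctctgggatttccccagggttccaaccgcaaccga

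Of the replication stress checkpoint, Atr and its effector kinase Chek1 were tested. The signals of Atr (probe set 1427197_at) in pairs 1 to 4 were 549, 410.3, 458 and 367 in the MYC-negative arrays and 1036, 996, 948 and 453 in the MYC-positive arrays. In pairs 1 to 3 the positive array was far above every negative array, while the positive array of pair 4 lay among the negative ones, so the groups overlapped. The fitted difference was 0.89 (SE 0.23, 95% interval 0.36 to 1.41, adjusted p = 0.025), a 1.85-fold higher signal, with pair differences of 0.92, 1.28, 1.05 and 0.30. The call ended without pair 1 (adjusted p = 0.12), without pair 2 (0.16) and without pair 3 (0.074), without the pairing (0.059), without the intensity trend (0.056), and when the probe sets of a gene were averaged (difference 0.26, 0.62). Over 12 alternatives the difference ran from 0.26 to 1.33 and the adjusted p from 0.00072 to 0.62, and Atr was called in 6. In pairs 1 to 4 the summed myeloid signal of the positive array was 14263, 5649.8, 2030 and 4411, beside the Atr differences above, and its part in them was not tested.

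The other probe sets of Atr read differently. For 1438921_at the difference was 0.09 (SE 0.42), and for 1445091_at it was -0.19 (SE 0.50). The signals of 1445091_at were 361, 218, 245 and 191 in the negative and 257, 399.6, 494 and 42.9 in the positive arrays: higher in the positive array of pairs 2 and 3 and lower in that of pairs 1 and 4, with pair 4 the lowest of all 8. Chek1, which holds the cell cycle when ATR signals, read 1796, 1847, 1996 and 2928 in the negative and 2423, 2276, 2815 and 2698 in the positive arrays. In pairs 1 to 3 Chek1 was higher in the positive array and in pair 4, whose negative array held the highest value of all, lower. The difference was 0.28 (SE 0.16, adjusted p = 0.25), and 0.41 (adjusted p = 0.047) without pair 4. The 3 other Chek1 probe sets above the filter had differences above 0, from 0.16 to 0.47, and 0 of them passed.

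Among the genes of break sensing and resection, 5 of 6 were tested and 0 passed. Nbn, the subunit of the MRN complex that brings ATM to the break, read 814, 751, 732 and 486 in the negative and 954, 1019.6, 929 and 1100.2 in the positive arrays. Every positive array exceeded every negative one, with the widest gap in pair 4; the difference was 0.55 (SE 0.22, 95% interval 0.053 to 1.04, adjusted p = 0.11). Mre11a, the nuclease subunit, read 648, 721, 658 and 699.8 in the negative and 872, 1034, 989 and 760.1 in the positive arrays. Again the groups did not overlap, with the narrowest gap in pair 4, and the difference was 0.41 (SE 0.19, adjusted p = 0.16). A separate Mre11a probe set, 1441990_at, had the opposite sign in 4 of 4 pairs, -0.75 (SE 0.29, adjusted p = 0.10 with every probe set fitted on its own), so the direction of this gene depended on the probe set.

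Rad50, which tethers the ends in the same complex, did not follow Nbn and Mre11a in sign. Its signals were 604, 542, 572 and 287 in the negative and 585, 665, 381 and 331 in the positive arrays, higher in the positive array of pairs 2 and 4 and lower in pairs 1 and 3, for a difference of -0.033 (SE 0.24). Whether Rad50 differed from its partners was not tested. The arrays of Atm, the kinase recruited by this complex, read 3161, 3061, 2429.6 and 1916 in the negative and 2707, 3353, 2888 and 780.0 in the positive group. The positive array of pair 4 stood far below the other 7; the difference was -0.28 (SE 0.25) with it and 0.052 without pair 4. Chek2, the effector kinase of ATM, was lower in the positive array of all 4 pairs, by little in pair 4, with a difference of -0.25 (SE 0.20, adjusted p = 0.41).

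**Figure D2:**
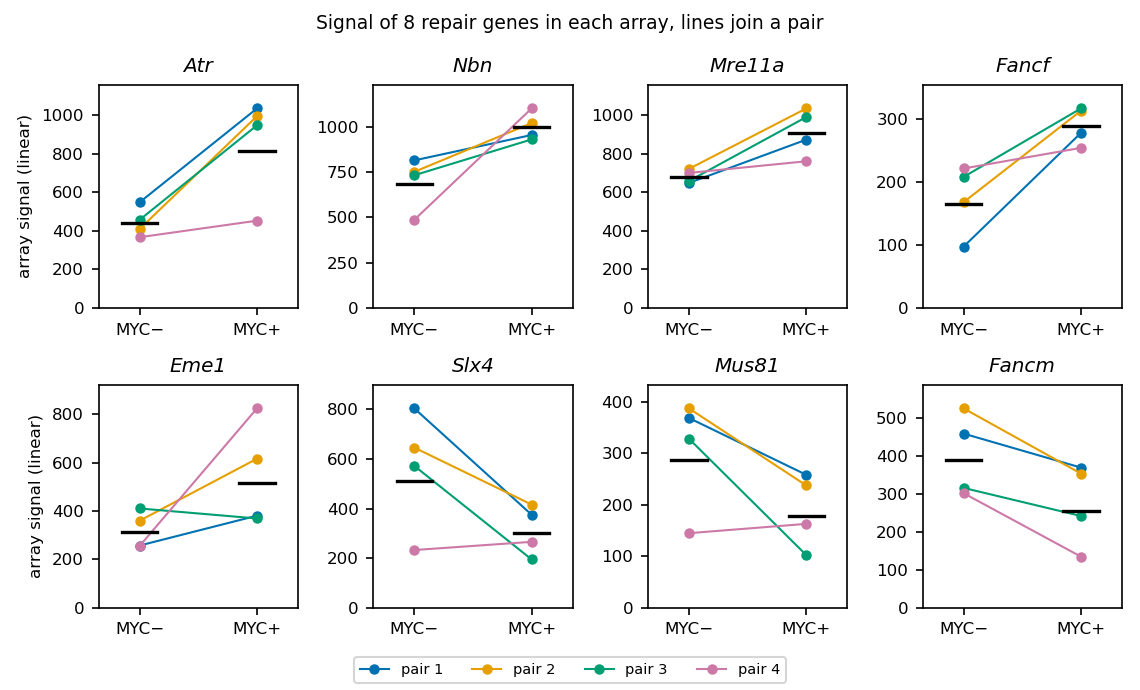
Signal on a linear scale in each array for Atr, Nbn, Mre11a, Fancf, Eme1, Slx4, Mus81 and Fancm, with lines joining the arrays of a pair and black bars at the geometric mean of each group. Atr shows 3 steep lines and a flat one for pair 4, and for Slx4 and Mus81 the line of pair 4 runs against the other 3.

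The BRCA complex, which prepares the trimmed end for strand exchange, had 0 of 4 members past the threshold. Brca1, a scaffold of the repair complex, read 1661, 1470.1, 1337 and 1127 in the negative and 1346, 1503, 957 and 548 in the positive arrays. It was lower in the positive array of pairs 1, 3 and 4, most in pair 4, and even in pair 2, so the groups overlapped; the difference was -0.45 (SE 0.21, 95% interval -0.92 to 0.025, adjusted p = 0.16). Both other Brca1 probe sets above the filter had differences of the same sign, -0.66 and -0.43. Brca2, which works on the single-stranded end, read 940.0, 979.6, 627 and 269.6 in the negative and 728, 984, 569.9 and 202 in the positive arrays. Its level followed the pair and hardly the fraction: both arrays of pair 4 were lowest and both of pair 2 highest, the pair held 96.9% of its variance over the 8 arrays and the fraction 2.0%, and the difference was -0.23 (SE 0.21). Palb2, which bridges BRCA1 and BRCA2, had a difference of -0.22 (SE 0.28). For Bard1, the partner of BRCA1, it was 0.35 (SE 0.35), and this rested on pair 1, where the signals were 284.5 and 852; without pair 1 it was -0.056.

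The strand exchange factors had small differences. All 7 tested lay between -0.11 (Rad54b) and 0.30 (Xrcc3), and 0 passed. Rad51ap1, which stimulates strand pairing, was higher in the positive array of 4 of 4 pairs, with signals of 1699.9, 1527, 1929 and 2136 in the negative and 2122, 1576, 2157 and 2251 in the positive arrays. The groups overlapped, and the difference was 0.15 (SE 0.15, 95% interval -0.19 to 0.49, adjusted p = 0.52). Rad54l, the motor that drives the strand search, read 1026, 1016, 969 and 781 in the negative and 1129, 1117, 923 and 812 in the positive arrays. These were nearly level within each pair, for a difference of 0.065 (SE 0.18, 95% interval -0.33 to 0.46), and the pair held 91.5% of the variance. Rad51b, Rad51c, Rad51d and Xrcc3, related proteins that assist strand exchange, had differences of 0.27, 0.17, 0.12 and 0.30, with SEs of 0.33, 0.33, 0.21 and 0.35. For Rad51c pair 3 gave -0.90 and pair 4 1.32, so its small mean joined opposite pairs. Its second probe set, 1423026_at, was lower in 4 of 4 pairs, -0.43 (SE 0.21).

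All 7 tested genes of the Fanconi core complex, the ubiquitin ligase of the pathway, missed the threshold, with Fancf and Fancm at opposite ends. Fancf, an adaptor within the core, read 97.5, 168, 208 and 222 in the negative and 278, 313, 317 and 254 in the positive arrays. Every positive array was above every negative one, with the widest gap in pair 1 and the narrowest in pair 4; the difference was 0.80 (SE 0.31, 95% interval 0.11 to 1.50, adjusted p = 0.092). Fancm, the translocase that brings the core complex to DNA, read 458, 524, 315 and 301 in the negative and 369, 353, 242 and 135 in the positive arrays. The positive array was the lower in all 4 pairs although the groups overlapped across pairs, and the difference was -0.61 (SE 0.26, 95% interval -1.20 to -0.017, adjusted p = 0.13).

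Fancm gave a larger difference in its other probe sets, fitted one by one in an alternative chosen after seeing the data, in which 21.1% of 22024 probe sets were called, 9.03% higher and 12% lower. The signals of 1457730_at were 559, 433, 401 and 315 in the negative and 143, 126, 145 and 140.4 in the positive arrays. All 4 positive arrays lay close together and far below the lowest negative one, and the difference was -1.60 (SE 0.27, 95% interval -2.21 to -0.98, adjusted p = 0.0061). For 1442106_at the signals were 245, 173, 177 and 106 and 52.9, 92.8, 70.3 and 50.5, again without overlap, with a difference of -1.38 (SE 0.36, adjusted p = 0.027). With the probe sets of each gene averaged, Fancm was the only member called, 1 lower and 0 higher where 23.5% of all genes were called, 9.93% higher and 13.5% lower. Its difference was then -1.19 (adjusted p = 0.0094); over its 12 alternatives the value ran from -1.19 to -0.17 and the adjusted p from 0.0094 to 0.68.

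Of 67 member probe sets above the filter, 4 (5.97%) were called in that fit: that of Atr, higher, and both of these Fancm probe sets and Rad54l 1453926_at, lower. The Rad54l probe set read 439, 297, 488 and 220.4 in the negative and 56.8, 174, 241 and 59.6 in the positive arrays. It was lower in 4 of 4 pairs but the groups overlapped, with a difference of -1.66 (SE 0.39, adjusted p = 0.021), while the one used for this gene was nearly level. In all, 19 genes had 34 further probe sets above the filter, of which 13 had the opposite sign to the one used. Wide splits were also seen at Fancl, where 1432337_at gave -1.64 (SE 0.51, adjusted p = 0.051) beside -0.10. At Rad51d 1442803_at gave -1.82 (SE 0.73) beside 0.12, and at Fancb 1446226_at gave -1.49 (SE 0.66) beside -0.26. Each of these last splits leaned on a low positive array. For Rad51d it read 3.46 in pair 3, a pair difference of -4.89, beside 0.15, -1.38 and -1.18 in pairs 1, 2 and 4. For Fancb it read 16.8 in pair 4, a pair difference of -4.57, beside -0.75, -0.12 and -0.54 in pairs 1 to 3. Which transcripts each probe set matches was not analysed here; the names of those used for Rad51ap1, Chek1 and Mus81 carry the suffix that marks probes shared among transcripts, and that of Xrcc3 the one that marks possible cross-hybridisation.

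**Figure D3:**
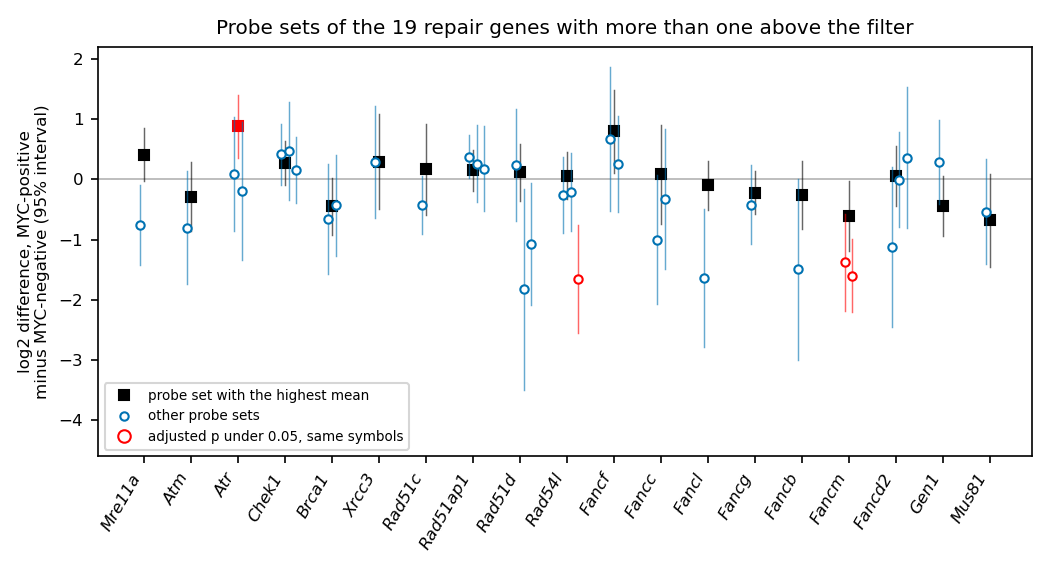
Difference in log2 signal, MYC-positive minus MYC-negative, for every probe set above the filter of the 19 genes with more than a single one. Squares are the probe set with the highest mean, circles the others, lines the 95% interval and red marks an adjusted p under 0.05; the circles of Fancm and of Rad54l in red lie from -1.38 to -1.66.

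The remaining core subunits spread around 0. Fanca, which holds the core complex together, read 555, 605, 485 and 295 in the negative and 326, 392, 279 and 300.5 in the positive arrays. It was lower in the positive array of pairs 1 to 3 and level in pair 4, for a difference of -0.54 (SE 0.25, adjusted p = 0.15), and -0.73 (adjusted p = 0.023) without pair 4. Fancg, an adaptor beside FANCA, had a difference of -0.22 (SE 0.16), Fancb, part of the catalytic module, -0.26 (SE 0.25), Fancl, the ligase itself, -0.10 (SE 0.18), and Fancc 0.083 (SE 0.36). Fancc had a pair difference of 1.46 in pair 4 and -0.97 in pair 3.

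The substrates of the core complex had differences near 0. Fancd2 read 619, 483, 399.7 and 327 in the negative and 597, 554, 354 and 389.6 in the positive arrays, a difference of 0.056 (SE 0.22, 95% interval -0.44 to 0.56). Fanci, its partner in the clamp, read 2058, 1790.4, 1718 and 1334 in the negative and 1959, 1936, 1355 and 1363 in the positive arrays, a difference of -0.068 (SE 0.16, 95% interval -0.43 to 0.30). For both genes the arrays of pairs 1 and 2 were above those of pairs 3 and 4 in either fraction, and the pair held 92.2% and 85.9% of the variance. Brip1, the helicase that works with BRCA1, had a difference of -0.51 (SE 0.39, adjusted p = 0.39), and this came mainly from pair 4, where its signals were 323 and 82.7; without pair 4 it was -0.029.

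The nucleases and helicase that take apart joined strands held the widest range, with 0 of 5 past the threshold. Slx4, the platform on which the nucleases assemble, read 804, 646, 572 and 233 in the negative and 376, 417, 195 and 266 in the positive arrays. It was lower in the positive array of pairs 1 to 3, and in pair 4 the negative array was itself low, so the groups overlapped; the difference was -0.77 (SE 0.31, 95% interval -1.47 to -0.073, adjusted p = 0.11), and -1.09 (adjusted p = 0.0028) without pair 4. Mus81, a nuclease that docks on SLX4, read 369, 387, 328 and 145 in the negative and 258, 238, 103 and 163 in the positive arrays. Its pairs took the same directions as those of Slx4, for a difference of -0.68 (SE 0.34, adjusted p = 0.19), and -0.97 (adjusted p = 0.022) without pair 4.

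Eme1, the obligate partner of MUS81, had the opposite sign. It read 257, 360.0, 410.3 and 256 in the negative and 381, 616, 369 and 823 in the positive arrays. Pairs 1, 2 and 4 were higher in the positive array, pair 4 most, and pair 3 slightly lower, for a difference of 0.72 (SE 0.31, 95% interval 0.014 to 1.42, adjusted p = 0.13). The difference between Eme1 and Mus81 was not tested. Gen1, a resolvase that acts apart from SLX4, had a difference of -0.44 (SE 0.22, adjusted p = 0.19), with its second probe set at 0.30. Blm, the helicase that dissolves double junctions, had -0.058 (SE 0.25); it was higher in the positive array of pairs 1 to 3 and lower in pair 4, and was 0.20 without pair 4.

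Variance was divided between pair, fraction and rest for each member. The pair held a median of 49.7% of a member's variance over the 8 arrays and the fraction 12.2%, where the same medians over all genes were 37.4% and 25.0%. The pair has 3 degrees of freedom and the fraction 1, which alone would give mean shares of 42.9% and 14.3%. Those are means and the shares above are medians, so they cannot be compared directly. The median level of these genes was lowest in both arrays of pair 4: measured from each gene's own mean over the 8 arrays on the log2 scale, the median member stood at -0.29 in the negative and in the positive array of pair 4, while the other 6 arrays ran from -0.057 to 0.19 and the medians of all genes from -0.076 to 0.098 over the 8 arrays. The positive array of pair 4 also stood apart over all genes, at 90.0 on the first principal component where the other 7 reached at most 31.1, and it held the lowest value of 11 members (33.3%, against 25.3% of all genes) and the highest of 6 (18.2%, against 19.2%). The negative array of pair 4 held the lowest of 7 and the highest of 6. Median member differences within pairs 1 to 4 were -0.072, 0.11, -0.14 and 0.025, without a common sign.

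**Figure D4:**
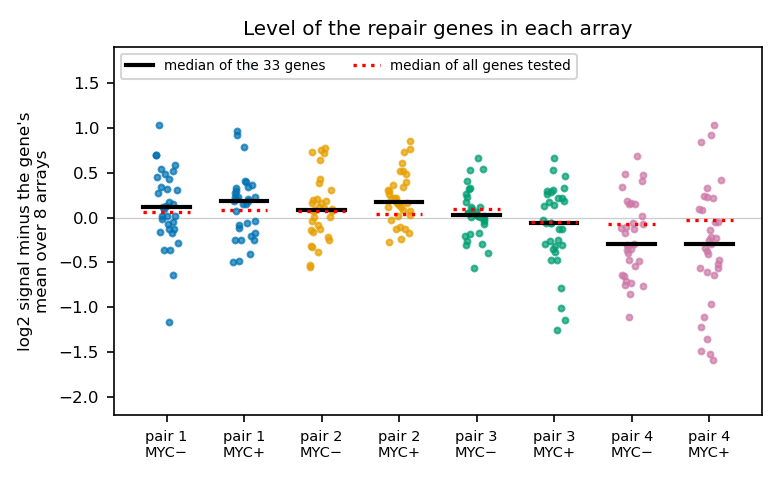
Log2 signal of each of the 33 repair genes minus its own mean over the 8 arrays, by array, with black bars at the median of the 33 and dotted red lines at the median of all genes tested. The black bars of both pair 4 arrays lie at -0.29, below the red lines, while those of the other arrays lie between -0.057 and 0.19.

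Other genes that act beside the members showed calls in both directions. In a list of 54 further recombination and Fanconi genes, 51 were tested and 4 were higher and 4 lower (15.7%, below the 22.7% of all genes), with a median of -0.0056. Higher were Rpa2, a subunit of the protein that coats single-stranded DNA and activates ATR, at 0.80 (SE 0.14, adjusted p = 0.0049), Rad1, part of the checkpoint clamp that also feeds ATR, at 0.83 (SE 0.18, adjusted p = 0.011), the resection nuclease Exo1 at 0.79 and Psmc3ip, a factor of meiotic recombination, at 0.75. Lower were the helicase Recql5, which restrains recombination, at -1.11 (SE 0.33, adjusted p = 0.042), Bod1l, which protects stalled forks, at -0.81, the helicase Helq at -0.72 and Uimc1, which brings a BRCA1 complex to breaks, at -0.59. The signals of Rpa2 were 2849, 3619.7, 3144 and 3291 in the negative and 5735, 5475, 5055 and 6174 in the positive arrays, and those of Rad1 747, 961, 1195 and 1326 and 1662, 1787, 1733 and 2209.6. Each was higher in the positive array of 4 of 4 pairs.

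End joining, the competing route of break repair, had 3 of 18 tested genes higher and 1 lower (22.2%, close to the 22.7% of all genes), with a median of -0.26. The Ku subunits Xrcc5 and Xrcc6, which bind broken ends first, were higher by 0.94 (SE 0.18, adjusted p = 0.0071) and 0.84 (SE 0.20, adjusted p = 0.019), the ligase Lig3 was higher by 0.86, and Lig4, the ligase of classical end joining, was lower, at -0.71 (adjusted p = 0.027). Of 44 DNA replication genes 8 were higher (18.2%, against 11.2% of all genes) and 0 lower (against 11.5%). Their median was 0.27, and Pold2 at 1.31, Mcm10 at 0.77 and Gins2 at 0.76 led. At an unadjusted p under 0.05, 17 were higher and 0 lower, where 1996 of all 11754 genes were higher and 2257 lower. Of 39 mitosis genes 0 were higher (against 11.2% of all genes) and 4 lower (10.3%, against 11.5%). The lower ones were Cenpe at -1.26, Kif23 at -0.58, Kif11 at -0.53 and Ncapd2 at -0.50. At an unadjusted p under 0.05, 1 mitosis gene was higher and 7 were lower. The repair members differed from these lists in their counts, but no test of that difference was made. Of the 24 calls in these 4 lists, 24 held without pair 4, 15 without pair 3, 3 without pair 2 (Rpa2, Psmc3ip and Pold2) and 0 without pair 1, where the lowest adjusted p was 0.05032. After median centring the 15 higher calls held and 0 of the 9 lower ones did.

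**Figure D5:**
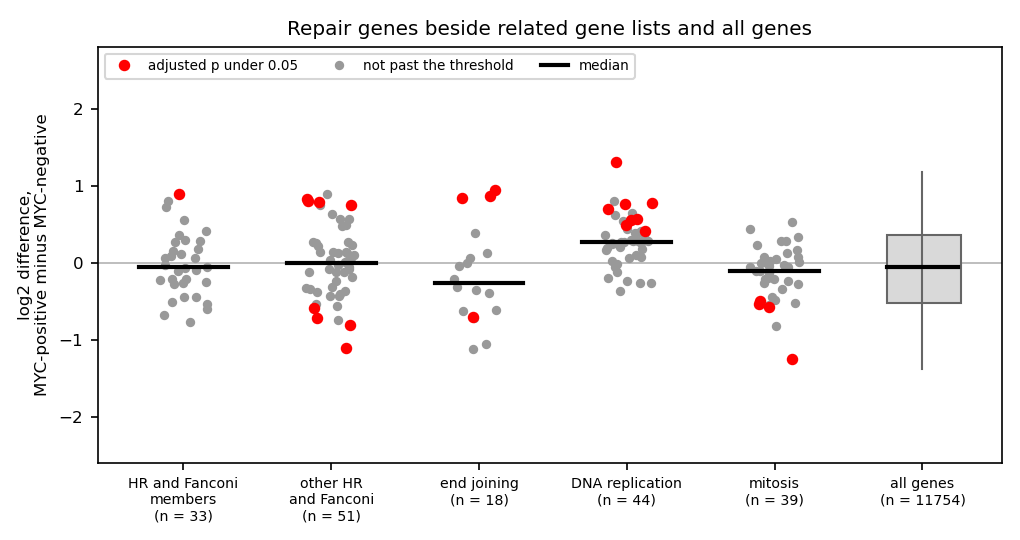
Difference in log2 signal, MYC-positive minus MYC-negative, for each tested gene of the repair members and of 4 related lists, with black bars at the medians and red dots past an adjusted p of 0.05; the box of all 11754 genes spans the quartiles and its line the 5th to 95th percentile. The members have a single red dot and a median of -0.058, and the replication genes a median of 0.27.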

How the data were processed

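Probe set values of 8 Affymetrix Mouse 430.2 arrays were used, 4 MYC-positive and 4 MYC-negative. Per the labels' protocols, 5 to 20 ng of total RNA was amplified and biotin-labelled with NuGEN kits. The deposited values are signal intensities on a linear scale, and the submitters' processing notes name MAS5. The sources used here do not give its version or scaling target, detection calls were not used, and no batch or scan date was used.

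Genes came from the platform annotation (34945 non-control probe sets with 1 gene, 932 with several, 9160 unnamed here). Signals under 1 were set to 1 and log2 taken; probe sets with a mean log2 above the 40th percentile (a signal of 18.7) were kept, and each gene was represented by its brightest probe set on average. limma 3.58.1 in R 4.3.3 fitted group with pair as a block and an intensity trend (3 residual degrees of freedom), with Benjamini-Hochberg adjustment over 11754 genes, 2-sided. Its eBayes step drew each gene's variance partly from the other genes. The SEs, intervals and p-values therefore do not rest on a gene's own 4 pairs alone. Over 4 pairs an exact sign-flip test cannot go below a p of 0.125, so none was made. The number of arrays limits the precision. The procedure was tested on simulated data.

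Pairs come from the sample descriptions, not from the replicate numbers in the titles. Paired arrays' deviations from their group means correlated at 0.26, 0.17, 0.088 and 0.12. The members, the gene lists, the motifs and the rule for named genes (all members, and the 3 largest calls of each list) were chosen with earlier results of these data known; list genes beyond 3 were named after their values were seen. Alternatives were quantile normalization, median centring, a pseudocount of 32, no filter and one at the 60th percentile, the mean over probe sets, no block, no trend, and leaving out each pair.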

Additional observations from a re-analysis of the deposited data

Results flagged for a closer look

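In 9 of 66 groups of 4 arrays (33 genes in each fraction), an extreme array stood apart by Dixon's test, in which the gap to the nearest array is divided by the range of the group and compared with the 95% critical value. That is 13.6% of the groups, where the same rule marked 6.99% of 23508 groups over all genes tested and chance alone gives about 1 in 20. The arrays of pair 4 account for 7 of the 9 (77.8%), and for 57.9% over all genes. In its MYC-positive array Atm (0.853), Atr (0.893) and Blm (0.891) were low. In its MYC-negative array Rad50 (0.854) and Mus81 (0.832) were low, and Fancb (0.963) and Fancg (0.881) were high. The other two were Rad51b, high in the MYC-positive array of pair 1 (0.991), and Rad51ap1, low in the MYC-positive array of pair 2 (0.834). The gap was 1.79 on the log2 scale for Atm, 1.18 for Blm and Mus81, and 1.07 for Atr. Without pair 4 the difference of Atr was 1.08 and that of Atm 0.052.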

How the results depend on the processing

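Of the members, 1 was called higher and 0 lower with a pseudocount of 32, with no filter and with a filter at the 60th percentile. In that order, 24.8%, 12.8% and 29.7% of all genes were called, and 12.0%, 6.49% and 15.1% were called higher. Members called higher and lower were 4 and 0 after quantile normalization (median difference 0.14) and 7 and 0 after median centring (median 0.38; all genes 3204 higher and 546 lower). They were 0 and 1 with the mean over probe sets (median -0.18), 0 and 0 without the replicate block (all genes 901 lower), and 0 and 0 with no trend (all genes 736 and 771). With every probe set fitted on its own, chosen after seeing the data, the genes called lower were 2. There 4.48% of member probe sets and 12% of all probe sets were called lower. Leaving out each pair gave 0 to 4 members higher, 0 to 3 lower and 403 to 1742 genes higher and 352 to 2036 lower overall. Without the block Atr had an adjusted p of 0.059, and no other member's call changed. Signs that turned belonged to uncalled members, apart from Pole2, called among the replication genes and at -0.031 when probe sets were averaged. The causes were not tested.

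With median centring, differences were 0.16 for Atm, 0.38 for Blm, 0.21 for Brca2, 0.19 for Chek2, 0.18 for Fancb, 0.22 for Fancg, 0.37 for Fanci, 0.34 for Fancl, 0.23 for Palb2, 0.41 for Rad50 and 0.33 for Rad54b. With quantile normalization they were 0.14 for Blm, 0.0044 for Fancl, 0.12 for Palb2 and 0.18 for Rad50. With the mean over probe sets they were -0.41 for Fancc, -0.18 for Fancd2, -0.17 for Mre11a, -0.13 for Rad51c, -0.63 for Rad51d and -0.51 for Rad54l. Over the fits that left out a pair, values ran from -0.46 to 0.052 for Atm, from -0.056 to 0.57 for Bard1, from -0.16 to 0.20 for Blm, from -0.38 to 0.43 for Fancc, from -0.0099 to 0.13 for Fancd2, from -0.13 to 0.024 for Fanci, from -0.14 to 0.15 for Rad50, from -0.21 to 0.53 for Rad51c, from -0.22 to 0.062 for Rad54b and from -0.045 to 0.56 for Xrcc3. The others kept their sign in these settings. Of 33 members, signs and calls were as reported for 16 with centring, 26 with quantile normalization, 25 with the mean over probe sets, 21 without pair 4 and at least 30 in the other settings.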
